A study of Mus musculus with 52 samples.

Results

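The 9 genes described here encode transcription factors that mark the layers of the cerebral cortex. They were chosen by name as deep-layer factors (Tbr1, Bcl11b, Fezf2, Sox5 and Foxp2) and upper-layer factors (Cux1, Cux2, Pou3f2 and Rorb). All 9 were found among the 48526 genes of each table and all 9 passed the filter on low values at every age.

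Poly-A RNA was sequenced from brain tissue of wild-type mice (WT) and of mice without Mir146, the gene of the microRNA miR-146a (KO). Whole cortex was taken at embryonic day 14 (E14) from 5 KO and 4 WT samples. Amygdala, frontal cortex and hippocampus were taken at postnatal day 30 (P30), with 4 KO and 4 WT samples in each region. The same 3 regions were taken at postnatal day 60 (P60), with 4 KO and 3 WT samples in the amygdala, 4 KO and 3 WT in the frontal cortex, and 2 KO and 3 WT in the hippocampus. The labels give no other allele and no treatment, and say nothing of the kind of Mir146 deletion, the strain or pooling of tissue. The series' design text states that the mice of a genotype and region had different mothers, and its naming of a sensory cortex and day 6 goes against the sample labels, which have frontal cortex and P60 and were followed. The p-values below measure the spread between these samples only, part of which may be technical.

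Cortical projection neurons are born in sequence, deep layers before upper layers, and their identity is held by factors that repress each other. Fezf2 drives the subcerebral fate of deep layer 5 neurons, largely through Bcl11b (also known as Ctip2), which directs their axons towards the spinal cord. Tbr1 specifies layer 6 neurons that project to the thalamus and represses Fezf2, Sox5 controls the timing of deep-layer neuron production, and Foxp2 marks layer 6. Cux1 and Cux2 shape the dendrites and synapses of upper-layer neurons, Pou3f2 (also known as Brn2) acts in their production and migration, and Rorb marks layer 4, the layer that receives thalamic input. Several of these genes are also used outside the cortex, such as Bcl11b in striatal and hippocampal neurons and Foxp2 in the striatum and amygdala.

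The microRNA removed in the KO mice and the matches to its seed in these genes are shown first, since they relate the sequence of the deleted gene to the genes described. A microRNA's seed, bases 2 to 8, pairs with messenger RNA. The 5p mature strand, from RefSeq on GRCm38.p6, lies at chr11:43374435-43374456 on the minus strand, with its seed in capitals:
mmu-miR-146a-5p: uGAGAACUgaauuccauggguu
The annotated 3′ UTRs of the 9 genes (GENCODE M21, GRCm38) were searched on the transcribed strand for AGTTCTC and GTTCTCA, the 2 motifs of 7 bases that pair with that seed or with most of it and the A that follows. A match was found in 5 of the 9 genes, all of the 4 upper-layer factors and 1 of the 5 deep-layer factors, beside 22.7% of the genes tested at E14 that have an annotated 3′ UTR (3050 of 13452). Each site lies on the minus strand and is written along the transcript, with the matched bases in capitals:
Sox5 (chr6:143832280-143832305): ctgtaggtgccGTTCTCAggtgaaaa
Cux1 (chr5:136267269-136267294): tctacgtctctAGTTCTCtcctccca
Cux2 (chr5:121858318-121858343): ggtcagagttgGTTCTCAgaagtgtt
Pou3f2 (chr4:22485618-22485643): acacacagtgtAGTTCTCtgcctttg
Rorb (chr19:18932577-18932602): ggccagtggttGTTCTCAtagccaaa
In the same annotation Tbr1 lies at chr2:61802930-61814114, Bcl11b at chr12:107910403-108003602, Fezf2 at chr14:12342094-12348189, Sox5 at chr6:143828425-144781977 and Foxp2 at chr6:14901349-15441977. Cux1 lies at chr5:136248135-136567490, Cux2 at chr5:121856366-122050102, Pou3f2 at chr4:22482780-22488366 and Rorb at chr19:18930605-19111196. Tbr1 and Foxp2 are on the plus strand and the other 7 on the minus strand. The matches are a description of letters and not of binding, and the seed of the 3p strand was not searched. No match was found in the annotated 3′ UTRs of Tbr1, Bcl11b, Fezf2 or Foxp2.

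Levels are given as the deposited normalised value, a number close to CPM (reads scaled to a common library total). Recovered depth ran from 2933026 to 9469214 reads per library. Mir146 itself had 1 read in 1 of the 52 libraries, so it checks no genotype label. Summed hippocampus markers were 2108 to 4915 in the hippocampus libraries and 1090 or lower in the other postnatal ones, while summed markers of intercalated and amygdalar nuclei (a list that holds Foxp2) overlapped between the amygdala (117 to 336) and the frontal cortex (109 to 184). Several libraries stood apart on such sums. In both replicates numbered 1 of the P60 hippocampus, KO and WT, the hippocampus sum was 2108 and 2257, against 4326 to 4915 in the other 3, and the sum over striatal projection neurons was 1631 and 2599, against 204 to 234. WT hippocampus replicate 3 at P30 had the highest sums for the choroid plexus (5461) and for myelinating oligodendrocytes (18313). In the amygdala, KO replicate 2 and WT replicate 3 at P30 and WT replicate 3 at P60 had hypothalamus sums of 9.3, 4.1 and 1.3, against 29.7 to 66.4 in the other 12 libraries. KO amygdala replicate 3 at P60 had the highest summed thalamus and habenula markers of the postnatal amygdala, 223 against 78 to 183. These 7 postnatal libraries were left out together, by age, in a further fit added after the data had been seen, whose values are given where they change a call, a direction or a size. At P60 that fit left KO replicate 2 as the only KO library of the hippocampus. Leaving out KO hippocampus replicate 1 or 2 alone at P60 also left a single KO library there. The genotypes were weighted equally, so that library carried the whole KO part of the hippocampus level.

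In E14 cortex none of the 9 factors passed the test between KO and WT, and Tbr1 was the one whose libraries did not overlap. Tbr1, the layer 6 factor, was at 421, 399, 424, 471 and 550 in the 5 KO libraries and at 351, 336, 332 and 354 in the 4 WT libraries. The lowest KO library thus lay above the highest WT library, a separation in the same direction that 0.643% of the 18350 genes tested also showed (1.16% in either direction). The means were 453.1 ± 60.2 (SD, n = 5) and 343.7 ± 10.8 (SD, n = 4). The difference was 0.39 on the log2(value + 1) scale (SE 0.0874, 95% interval 0.20 to 0.58), and its adjusted p of 0.907 by limma (Benjamini-Hochberg over all genes), at rank 18 of all genes by p, missed the threshold of 0.05. In tissue RNA, more cells of a type and more RNA per cell cannot be told apart.

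KO replicates 4 and 5 held the highest Tbr1 values, and they also stood apart in markers of cell types. Their summed markers of cortical projection neurons (6 genes, among them Neurod2 and Neurod6) were 1388 and 1413, against 735 to 852 in the other 3 KO libraries and 565 to 889 in the WT libraries. Their summed neocortical radial glia markers were 1378 and 1203, against 1869 to 2041 and 1540 to 1889. In a fit without these 2 libraries, added after the data had been seen, Tbr1 was higher in KO by 0.27 (SE 0.0563, limma adjusted p = 0.418). The KO values left were 399 to 424. Since every KO library lay above every WT library, leaving out the 2 highest could neither turn the difference nor make the libraries overlap. Summed markers of other tissues and of Cajal-Retzius cells had lower medians in the KO group. Their sums in KO and WT were 199 to 549 (median 376) and 542 to 743 (median 592) for the thalamus and habenula, 384 to 607 and 588 to 659 for Cajal-Retzius cells, and 55.6 to 171 (median 78.9) and 113 to 224 (median 142) for the hypothalamus, all with overlapping ranges. The part of these cell types and tissues in the Tbr1 difference was not tested beyond the fit without KO replicates 4 and 5.

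Bcl11b, the layer 5 axon factor, was at 513, 458, 458, 525 and 717 in KO and at 547, 403, 443 and 423 in WT. Only KO replicate 5 lay above the WT range. Fezf2, its upstream regulator, was at 82.0, 129, 110, 128 and 110 in KO and at 91.0, 96.3, 56.4 and 105 in WT. The lowest KO library lay inside the WT range and the other 4 above it.

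Sox5 was at 258, 288, 244, 474 and 448 in KO and at 351, 232, 226 and 231 in WT. Here KO replicates 4 and 5, the ones high in projection neuron markers, were alone above the WT range, and WT replicate 1 stood above the other WT libraries. Foxp2 was at 170, 143, 162, 229 and 225 in KO and at 238, 199, 182 and 170 in WT, with the highest library in WT. The differences of these 4 deep-layer genes, KO minus WT, were 0.23 (SE 0.135) for Bcl11b, 0.38 (SE 0.184) for Fezf2, 0.36 (SE 0.221) for Sox5 and −0.10 (SE 0.150) for Foxp2. Each had a limma adjusted p of 1.0. Without KO replicates 4 and 5 they were 0.078, 0.31, 0.041 and −0.30 in the same order. Those libraries held the highest KO values of Bcl11b, Sox5 and Foxp2, so leaving them out could only lower these differences. The smaller Bcl11b and Sox5 differences and the larger negative difference of Foxp2 are therefore no independent test.

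The upper-layer factors overlapped between the genotypes at E14. Cux1 was at 503, 449, 476, 384 and 464 in KO and at 462, 461, 490 and 462 in WT, a spread among KO libraries that took in every WT value. Cux2 was at 112, 82.7, 104, 136 and 177 in KO and at 126, 88.8, 104 and 88.0 in WT, with KO replicates 4 and 5 above the WT range and KO replicate 2 below it. Pou3f2 was at 189, 161, 223, 217 and 234 in KO and at 242, 210, 230 and 184 in WT.
Rorb, the layer 4 gene, was the lowest of the set, at 70.3, 51.4, 47.8, 90.0 and 80.1 in KO and at 79.4, 56.7, 64.2 and 53.9 in WT. The 4 differences were −0.048 (SE 0.0753) for Cux1, 0.23 (SE 0.196) for Cux2, −0.085 (SE 0.116) for Pou3f2 and 0.069 (SE 0.191) for Rorb. In the fit without KO replicates 4 and 5 those of Cux1, Cux2 and Rorb changed sign, to 0.021, −0.025 and −0.17. The libraries left out held the highest KO values of Cux2 and Rorb, so the differences of these genes could only fall.

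**Figure D1:**
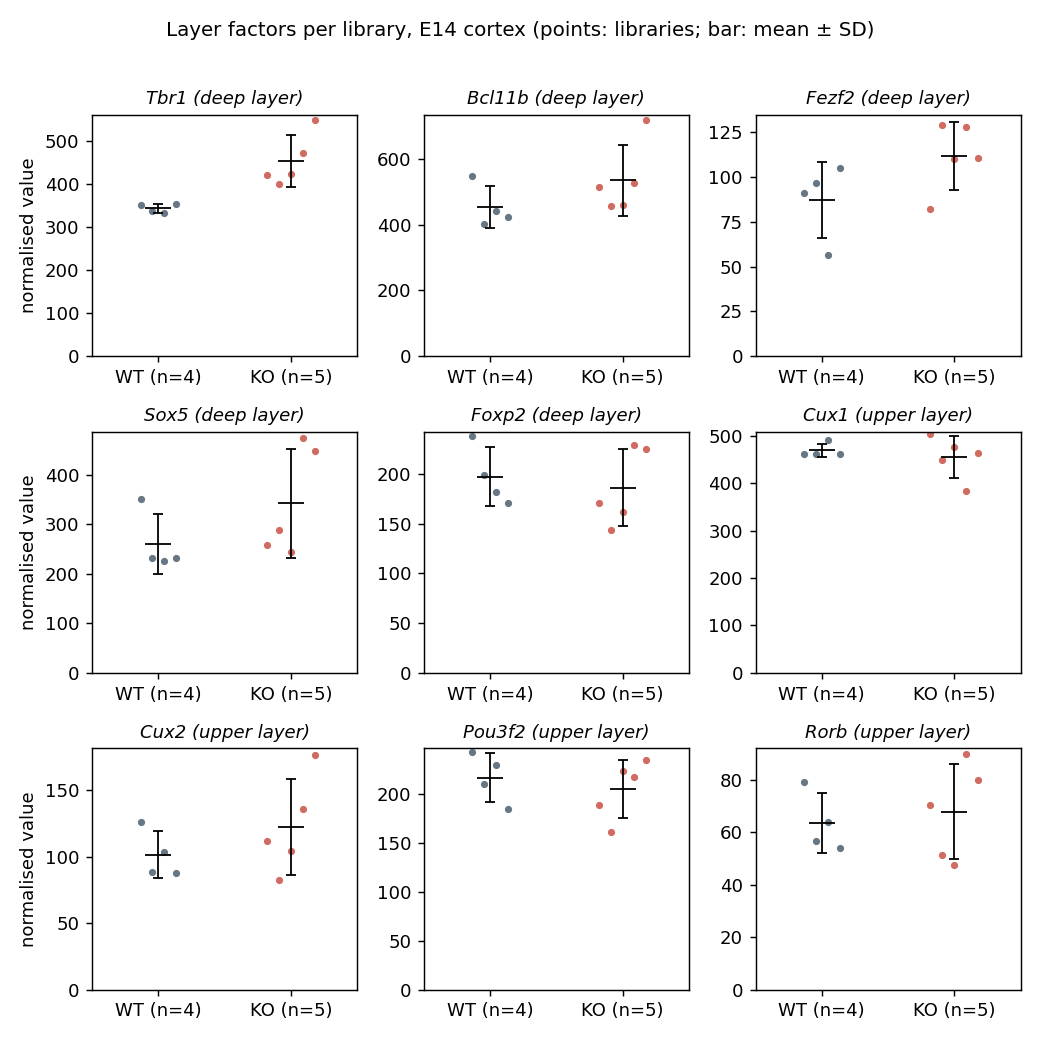
Normalised value (y axis, from 0) of each of the 9 factors in the 4 WT and 5 KO libraries of E14 cortex, 1 panel per gene, with points for libraries and a bar for the mean and SD. The 5 KO points of Tbr1 (399 to 550) lie above the 4 WT points (332 to 354), and the points of the other 8 genes overlap.

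Over the 9 factors, 6 differences were above 0 and their median was 0.23, beside a median of 0.006 over all 18350 genes. By limma, 0 of 9 were called at E14, where 0.049% of all genes were, and 1 of 9 (Tbr1) had an unadjusted p under 0.05, as did 2.89% of all genes. A fit with voom weights also called 0 of 9. Of 20 other deep-layer genes tested, 13 were above 0 (median 0.15) and 0 were called. Of 20 other upper-layer genes, 13 were above 0 (median 0.072) and 0 were called. Of 24 genes listed as regulators, targets or partners of the factors, 21 were above 0 (median 0.19) and 0 were called. These lists share members with the projection neuron markers, such as Neurod2 and Neurod6, members of a list whose sum was highest in KO replicates 4 and 5.

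Per kilobase of annotated exon, the order in WT E14 cortex was led by Tbr1 at 62.7 ± 1.97 (SD, n = 4) and Bcl11b at 56.0 ± 7.91, which overlapped within their spread. This length merges all annotated exons of a gene and not those of the transcripts expressed, so the comparison between genes is approximate. Pou3f2 followed at 38.8 ± 4.54, then Fezf2 at 28.6 ± 6.99, Cux1 at 23.4 ± 0.712 and Sox5 at 18.1 ± 4.23. The spread of Fezf2 overlapped those of Pou3f2, Cux1 and Sox5. Foxp2 (12.1 ± 1.80) and Cux2 (10.1 ± 1.78) did not differ beyond their spread, and Rorb was lowest at 5.74 ± 1.03. In WT frontal cortex at P30 Tbr1 was again highest, at 34.9 ± 3.11, and Rorb came next at 23.1 ± 2.38. Cux2 (19.0 ± 4.68), Cux1 (15.3 ± 2.06), Bcl11b (14.7 ± 4.11) and Pou3f2 (13.3 ± 2.34) formed a run of neighbours whose spreads overlapped, above Fezf2 (6.93 ± 1.37), Sox5 (5.83 ± 0.536) and Foxp2 (2.60 ± 0.619).

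Between the ages the upper-layer genes parted. On reads scaled together over the 3 tables by TMM, Rorb was at 56.8 ± 9.57 (SD, n = 4) in WT E14 cortex and at 274.3 ± 29.1 (SD, n = 4) in WT P30 frontal cortex, 4.83 times as high. Cux2 was at a mean of 90.9 (79.1 to 111, n = 4) and at 205.3 ± 51.4 (SD, n = 4), 2.26 times as high. These 2 were the factors with a higher level at P30, and their libraries did not overlap between the ages. The other 7 were lower at P30, and Foxp2 was lowest relative to E14, at 176.3 ± 24.5 and 45.5 ± 10.7, 3.87 times lower. Fezf2 went from 78.0 ± 19.1 to 22.7 ± 4.37, Bcl11b from 405.9 ± 52.6 to 128.3 ± 35.4, Sox5 from 232.6 ± 51.4 to 90.0 ± 8.57 and Pou3f2 from 193.8 ± 21.4 to 79.8 ± 14.1. The smallest differences were those of Tbr1 (307.7 ± 8.33 and 205.3 ± 18.1) and Cux1 (419.8 ± 14.9 and 329.2 ± 45.5). These are levels with no test, since whole cortex was set against frontal cortex and each age is a table of its own. On plain CPM no factor changed direction, and Tbr1 and Cux1 were lower by more, −0.86 and −0.63 on the log2 scale against −0.58 and −0.35.

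Between the postnatal regions most of the factors differed. All 4 upper-layer factors were higher in frontal cortex than in either other region at both ages. Of the deep-layer factors, Tbr1 was higher in frontal cortex too, Bcl11b was lower there than in hippocampus, and Fezf2 passed the test in no comparison of regions that used all libraries. Values below are the lowest, median and highest over the KO and WT libraries of a region, and differences are on the log2(value + 1) scale with limma p-values adjusted over all genes tested.

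Tbr1 ran from 172 to 213 (median 189) in P30 frontal cortex, from 55.6 to 181 (median 77.8) in amygdala and from 56.4 to 88.0 (median 70.1) in hippocampus. The frontal cortex libraries lay above every hippocampus library, while 1 amygdala library reached into their range. The difference was 1.43 (SE 0.213, adjusted p = 1.62e-05) against hippocampus and 1.10 (SE 0.213, adjusted p = 4.40e-04) against amygdala. At P60 the ranges were 170 to 217, 55.3 to 181 and 38.0 to 87.8, and the differences were 1.48 (SE 0.281, adjusted p = 1.00e-03) and 1.12 (SE 0.255, adjusted p = 4.04e-03), with adjusted p of 0.0752 and 0.243 on the WT libraries alone. Hippocampus and amygdala were not told apart, with −0.33 (SE 0.213, adjusted p = 0.221) at P30 and −0.36 (SE 0.281, adjusted p = 0.373) at P60.

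The amygdala libraries split in Tbr1 along with hypothalamus markers. KO replicate 2 and WT replicate 3 at P30 and WT replicate 3 at P60, those with the lowest hypothalamus sums, had Tbr1 at 169, 181 and 181, against 55.3 to 120 in the other 12. The same 3 libraries had Cux2 at 102, 127 and 118, against 37.3 to 92.9 in the others. Without the libraries that stood apart at P30, frontal cortex was above amygdala by 1.42 for Tbr1 (SE 0.118, adjusted p = 2.52e-08). In the fits without those that stood apart, hippocampus differed from amygdala by 0.033 for Tbr1 at P30 and by 0.25 at P60. At each age these fits dropped the amygdala library highest in Tbr1 of each genotype, so they are no independent test. Which part of the tissue these samples held was not tested.

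Bcl11b had the opposite order. At P30 it ran from 118 to 270 (median 253) in hippocampus, from 151 to 196 (median 169) in amygdala and from 86.5 to 157 (median 128) in frontal cortex. The 118 was WT hippocampus replicate 3, the library high in choroid plexus and myelin genes, and the other 7 hippocampus libraries ran from 195 to 270. Frontal cortex was lower than hippocampus by −0.92 (SE 0.165, adjusted p = 1.22e-04) and lower than amygdala by −0.52 (SE 0.165, adjusted p = 0.0173), the latter with adjusted p of 0.168 on the WT and 0.0603 on the KO libraries alone. At P60 the difference from hippocampus was −1.19 (SE 0.194, adjusted p = 2.40e-04), with no overlap (58.9 to 150 against 218 to 279). That from amygdala, −0.42 (SE 0.176), had an adjusted p of 0.0813, and of 0.00749 with the replicate number as a block, and it passed without KO amygdala replicate 3 (adjusted p = 0.0427) or KO frontal cortex replicate 4 (adjusted p = 0.0116). Hippocampus was above amygdala by 0.77 at P60 (SE 0.194, adjusted p = 7.67e-03), a call that was lost without KO hippocampus replicate 2 (adjusted p = 0.0591) and without the libraries that stood apart (adjusted p = 0.0776). At P30 that difference was 0.40 (adjusted p = 0.0580), and it passed without WT hippocampus replicate 3 (0.53, adjusted p = 2.84e-03), without KO hippocampus replicate 4 (0.45, adjusted p = 0.0406) and without the libraries that stood apart (0.52, adjusted p = 0.0124).

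Within frontal cortex Bcl11b moved with the striatal projection neuron markers (10 genes, among them Drd1, Drd2 and Ppp1r1b). The KO libraries at P30 had Bcl11b at 148, 86.8, 157 and 112 beside striatal sums of 1319, 293, 1328 and 815. The WT libraries had 95.6, 152, 86.5 and 144 beside 691, 1373, 458 and 1157. At P60 the KO libraries had 78.6, 115, 58.9 and 150 beside 331, 1015, 327 and 1716, and the WT libraries 111, 115 and 128 beside 773, 778 and 1297. The libraries highest in one were thus highest, or nearly so, in the other, in both genotypes. The part of striatal tissue in the Bcl11b level was not tested.

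Fezf2 passed the test in 0 of the 6 region comparisons, with differences from −0.16 to 0.060 and adjusted p from 0.868 to 0.993. Its libraries were the most scattered in the amygdala, from 3.44 to 58.3 at P30 and from 3.70 to 62.9 at P60, against 16.2 to 39.2 and 14.2 to 34.4 in frontal cortex and 11.3 to 34.9 and 18.8 to 52.8 in hippocampus. The lowest values, 3.44 and 3.70, were WT replicate 3 at P30 and KO replicate 3 at P60. Both are among the libraries that stood apart, as are KO replicate 2 at P30 (11.0) and WT replicate 3 at P60 (14.65). The fit without those libraries thus dropped the lowest amygdala value of each genotype at each age, so its P60 call below is no independent test. In it, Fezf2 was lower in frontal cortex than in amygdala by −0.55 at P30 (SE 0.215, adjusted p = 0.0515). At P60 it was lower by −0.74 (SE 0.251, adjusted p = 0.0439), and lower in hippocampus than in amygdala by −0.99, with a single KO hippocampus library.

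Sox5 fell in steps from frontal cortex (77.8 to 94.5, median 81.6) to amygdala (46.3 to 82.1, median 64.6) to hippocampus (26.8 to 46.2, median 37.7) at P30. Hippocampus overlapped with neither other region. The differences of frontal cortex were 0.38 from amygdala (SE 0.0966, adjusted p = 3.28e-03, and 0.143 on the KO libraries alone) and 1.19 from hippocampus (SE 0.0966, adjusted p = 3.25e-10). At P60 they were 0.48 (SE 0.186, adjusted p = 0.0611) and 1.35 (SE 0.205, adjusted p = 1.25e-04), and the first passed without KO amygdala replicate 2 (adjusted p = 0.0315), without KO frontal cortex replicate 4 (adjusted p = 0.0446) and without the libraries that stood apart (0.33, adjusted p = 0.0148). Hippocampus was below amygdala by −0.82 at P30 (SE 0.0966, adjusted p = 2.25e-07) and by −0.87 at P60 (SE 0.205, adjusted p = 4.70e-03), the latter lost without KO hippocampus replicate 2 (adjusted p = 0.0508).

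Foxp2 had the largest log2 difference between regions at P30 of the 9 factors. It ran from 31.1 to 60.6 (median 43.2) in frontal cortex, from 5.23 to 50.1 (median 17.1) in amygdala and from 2.03 to 15.8 (median 3.54) in hippocampus. Frontal cortex lay above hippocampus in every library, by 3.08 (SE 0.403, adjusted p = 3.56e-06), and above amygdala by 1.43 (SE 0.403, adjusted p = 8.76e-03). Hippocampus was below amygdala by −1.65 (SE 0.403, adjusted p = 2.47e-03). On the WT libraries alone the adjusted p of the differences from amygdala was 0.289 and 0.0636. Without the libraries that stood apart the difference of frontal cortex from amygdala was 1.91 (SE 0.288, adjusted p = 5.09e-05). That fit dropped the P30 amygdala library highest in Foxp2 of each genotype (36.8 in KO and 50.1 in WT). Its larger difference is therefore no independent test. The striatal sum was 293 to 1373 in P30 frontal cortex and 174 to 246 in hippocampus. Within P30 frontal cortex Foxp2 was highest in KO replicate 1 (60.6) and WT replicate 2 (53.9), each among its genotype. Their striatal sums were 1319 and 1373. It was lowest in KO replicate 2 (38.5) and WT replicate 3 (31.1), with 293 and 458. KO replicate 3 had a slightly higher sum than KO replicate 1 but a lower Foxp2 value. In P60 frontal cortex WT replicate 3 had the highest WT striatal sum and the lowest WT Foxp2 value (38.3). KO replicate 4, with the highest KO sum, was below KO replicate 2 (47.3), and KO replicate 1, with a low sum, was lowest (19.4). The part of striatal tissue in the Foxp2 difference was not tested. At P60 the KO hippocampus libraries were at 44.6 and 1.08 and the WT libraries at 49.2, 3.39 and 4.82. The 44.6 and the 49.2 were the libraries numbered 1, with the high striatal sums and the low hippocampus sums given above, and their part in the Foxp2 level was not tested further.
The P60 difference of frontal cortex from hippocampus was 1.92 (SE 0.788, adjusted p = 0.0801) with all libraries. It passed without WT replicate 1 (2.47, adjusted p = 0.0175). Without KO replicate 1 it was 3.03, in a fit with a single KO hippocampus library. Without all the P60 libraries that stood apart it was 3.58, again with a single KO hippocampus library. Hippocampus was then below amygdala by −2.32, against −0.87 (SE 0.788, adjusted p = 0.455) with all libraries. Frontal cortex was above amygdala by 1.04 at P60 (SE 0.715, adjusted p = 0.298) with all libraries and by 1.27 without those that stood apart. The P60 fit without them dropped the amygdala library highest in Foxp2 (78.7) and the hippocampus libraries at 44.6 and 49.2. Its larger differences are therefore no independent test.

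Cux1 ran from 224 to 352 (median 281) in P30 frontal cortex, from 92.3 to 217 (median 123) in amygdala and from 77.9 to 123 (median 83.6) in hippocampus. Cux2 ran from 150 to 252 (median 163), from 37.3 to 127 (median 64.8) and from 22.8 to 47.5 (median 27.8) in the same order. For both genes every frontal cortex library lay above every library of the other 2 regions. Frontal cortex was above amygdala by 1.09 (SE 0.121, adjusted p = 4.60e-07) for Cux1 and 1.37 (SE 0.185, adjusted p = 8.23e-06) for Cux2. It was above hippocampus by 1.66 (SE 0.121, adjusted p = 2.25e-10) for Cux1 and by 2.56 (SE 0.185, adjusted p = 6.08e-10) for Cux2, the latter 2.76 at P60 (SE 0.172, adjusted p = 2.09e-08). The P60 differences from amygdala were 0.95 (SE 0.152, adjusted p = 2.21e-04) and 1.36 (SE 0.156, adjusted p = 9.02e-06). Hippocampus was the lowest region for both, below amygdala at P30 by −0.58 (SE 0.121, adjusted p = 5.07e-04) for Cux1 and −1.18 (SE 0.185, adjusted p = 2.78e-05) for Cux2. At P60 the same differences were −0.50 (SE 0.168, adjusted p = 0.0348) and −1.40 (SE 0.172, adjusted p = 1.91e-05). That of Cux1 at P60 was lost, with adjusted p of 0.0539 to 0.175, on leaving out any 1 of WT amygdala replicates 1 or 3, KO hippocampus replicate 2, or WT hippocampus replicates 2 or 3, and also with voom weights (adjusted p = 0.0794) and with no filter on low values (adjusted p = 0.0582).

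Pou3f2 ran from 59.8 to 86.9 (median 68.9) in P30 frontal cortex, from 17.1 to 44.9 (median 21.6) in amygdala and from 19.7 to 25.0 (median 22.5) in hippocampus. Frontal cortex did not overlap with the other regions, and it was above amygdala by 1.56 (SE 0.126, adjusted p = 2.82e-09) and above hippocampus by 1.62 (SE 0.126, adjusted p = 3.29e-10). Amygdala and hippocampus were not told apart, with a difference of −0.068 (95% interval −0.33 to 0.19) at P30 and −0.31 (95% interval −0.74 to 0.12) at P60. The P60 differences of frontal cortex were 1.44 (SE 0.183, adjusted p = 2.55e-05) and 1.76 (SE 0.202, adjusted p = 7.75e-06).

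Rorb had the smallest standard errors of the set between regions. It ran from 195 to 280 (median 232) in P30 frontal cortex, from 96.0 to 145 (median 104) in amygdala and from 62.8 to 93.9 (median 83.5) in hippocampus, and no pair of regions overlapped. Frontal cortex was above amygdala by 1.09 (SE 0.0853, adjusted p = 7.41e-10) and above hippocampus by 1.54 (SE 0.0853, adjusted p = 2.55e-13), and hippocampus was below amygdala by −0.45 (SE 0.0853, adjusted p = 1.10e-04). At P60 the first 2 were 1.08 (SE 0.115, adjusted p = 2.15e-06) and 1.38 (SE 0.127, adjusted p = 3.80e-07). The difference of hippocampus from amygdala, −0.30 (SE 0.127), had an adjusted p of 0.0863. It was −0.44 without KO hippocampus replicate 1, in a fit with a single KO hippocampus library.

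**Figure D2:**
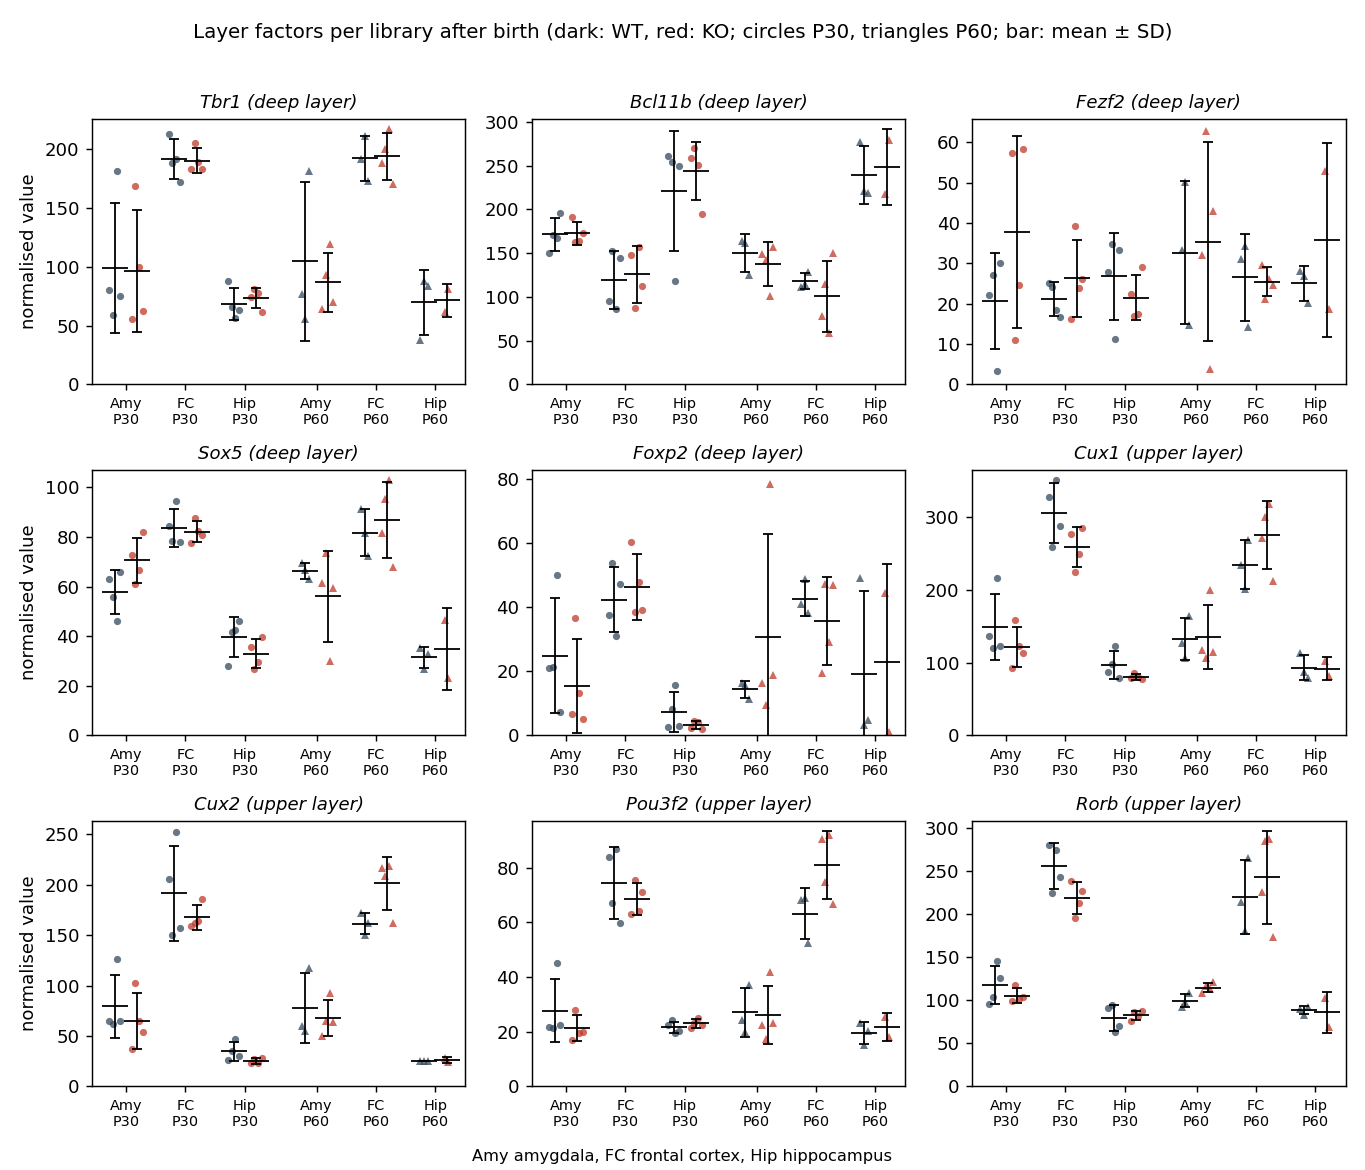
Normalised value (y axis, from 0) of each factor in every postnatal library, by region (Amy, FC, Hip) and age, WT in dark and KO in red, with a bar for the mean and SD whose lower end is clipped at 0 for Foxp2. The frontal cortex points of Cux1, Cux2, Pou3f2 and Rorb stand above the other regions at both ages, those of Bcl11b are low, and Foxp2 in the P60 hippocampus has 1 high library per genotype (44.6 and 49.2).

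Counted over the 9 factors, 8 differed between frontal cortex and amygdala at P30, 7 of them higher in frontal cortex and 1 lower. Of the 18976 genes tested, 13.9% were called higher in that comparison and 23.4% lower. Against hippocampus 7 were higher and 1 lower, beside 23.7% and 19.6% of all genes. Between hippocampus and amygdala 0 were higher and 5 lower, beside 15.3% and 28.8%. At P60, with 19239 genes tested, 5 were higher and 0 lower in frontal cortex than in amygdala, beside 11.0% and 20.3%. With the replicate number as a block 5 were higher and 1 lower (Bcl11b), where 6394 of the 19239 genes were called. Without the P60 libraries that stood apart the count moved, in a fit with a single KO hippocampus library. That fit left out the P60 amygdala library lowest in Fezf2 of each genotype and the P60 amygdala library highest in Foxp2 (78.7). Against hippocampus 6 were higher and 1 lower at P60, beside 17.0% and 15.8%, and between hippocampus and amygdala 1 was higher and 3 lower, beside 9.39% and 19.6%. This last count moved without the libraries that stood apart and without KO hippocampus replicate 2, in fits with a single KO hippocampus library.

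Libraries did not overlap for 4 factors between frontal cortex and amygdala at P30, the 4 of the upper layers, where 10.4% of all genes did not overlap. The same 4 did not overlap at P60, beside 12.2% of all genes. Between frontal cortex and hippocampus 7 did not overlap at each age, beside 16.1% and 18.6% of all genes. The P30 set held Foxp2 and the P60 set Bcl11b in its place. Between hippocampus and amygdala 2 did not overlap at each age, Sox5 and Rorb at P30 and Bcl11b and Cux2 at P60, beside 11.7% and 13.9%.

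**Figure D3:**
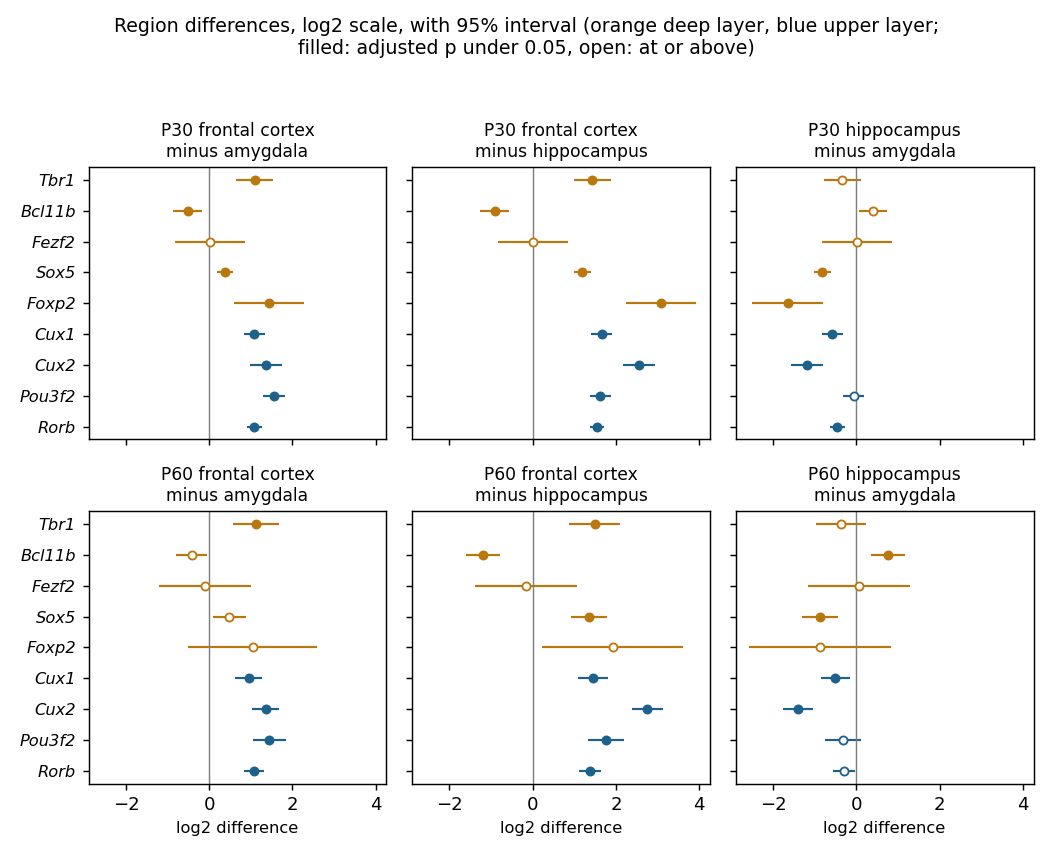
Log2 difference between regions (x axis, with its 95% interval) for each factor at P30 (top) and P60 (bottom), deep-layer genes in orange and upper-layer genes in blue, filled where the adjusted p was under 0.05. The blue points of both frontal cortex comparisons lie at 0.95 or higher, Bcl11b lies below 0 there, and Fezf2 lies near 0 throughout.

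The mean log2 level of the 5 deep-layer factors minus that of the 4 upper-layer factors, taken per library as a description, had its lowest group means in frontal cortex. It was 0.54 ± 0.17 (SD, n = 4) in WT and 0.74 ± 0.15 (SD, n = 5) in KO E14 cortex, with overlapping libraries (0.29 to 0.68 and 0.53 to 0.91). In P30 frontal cortex it was −1.36 ± 0.35 in WT and −1.09 ± 0.13 in KO. In the P30 hippocampus it was −0.31 ± 0.19 and −0.37 ± 0.08, and in the P30 amygdala −0.61 ± 0.41 and −0.26 ± 0.23 (SD, n = 4 each). At P60 the frontal cortex had −1.05 ± 0.27 (SD, n = 3) in WT and −1.41 ± 0.34 (SD, n = 4) in KO, the reverse order of the genotypes at P30. The regions overlapped: WT amygdala replicate 3 at P30, at −1.21, lay inside the frontal cortex range of −1.77 to −0.97, and the P60 amygdala libraries at −1.20 and −0.95 lay inside that of −1.69 to −0.78.

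Partner genes of the layers did not move as one block between regions. Of 21 other deep-layer genes tested at P30, 8 were higher and 6 lower in frontal cortex than in amygdala, and 10 were higher and 5 lower than in hippocampus. Of all genes, 13.9% were higher and 23.4% lower than in amygdala, and 23.7% and 19.6% than in hippocampus. The largest rises against hippocampus were those of Cplx3 (2.97, SE 0.156, adjusted p = 5.33e-14) and Ccn2 (2.46, SE 0.193, adjusted p = 1.88e-10), and the largest falls those of Zfpm2 (−1.33, SE 0.218, adjusted p = 4.57e-05) and Crym (−1.20, SE 0.303, adjusted p = 3.25e-03). Of 22 other upper-layer genes, 8 were higher and 7 lower in frontal cortex than in amygdala, and 9 were higher and 6 lower than in hippocampus. Kcnh5, a potassium channel gene, was higher by 2.06 (SE 0.349, adjusted p = 1.25e-04) than in amygdala and by 2.59 (SE 0.349, adjusted p = 5.51e-06) than in hippocampus. Mdga1 (−1.50, SE 0.118, adjusted p = 5.93e-10) and Bhlhe22 (−1.41, SE 0.237, adjusted p = 6.86e-05) were lower than in hippocampus.
Of 25 regulators, targets and partners, 8 were higher and 10 lower in frontal cortex than in hippocampus. Mef2c, a neuronal transcription factor, was higher by 2.41 (SE 0.0862, adjusted p = 1.22e-16), and the neurogenic factors Neurod6 (−1.88, SE 0.175, adjusted p = 2.39e-08) and Neurod1 (−1.51, SE 0.185, adjusted p = 8.80e-07) were lower. At P60 the deep-layer list had 6 higher and 6 lower in frontal cortex than in hippocampus, the upper-layer list 10 and 5, and the third list 7 and 11, beside 17.0% and 15.8% of all genes.

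Between genotypes 0 of the 9 factors were called by limma in any postnatal setting, and a fit with voom weights also called 0. Of all genes, the share called at P30 was 0.0263% for amygdala, 0.0158% for frontal cortex and 0.0316% for hippocampus, and at P60 it was 0.0208%, 0.0312% and 0.0208%. In each setting the KO and WT libraries of every factor overlapped, while those of 6.65%, 2.36% and 3.15% of all genes at P30 and of 5.04%, 5.26% and 11.7% at P60 did not. At an unadjusted p under 0.05 there was 1 factor, Sox5 in the P30 amygdala, where 9.82% of all genes reached it, and there were 0 in the other 5 settings, beside 1.96% to 9.55%.

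In the P30 amygdala Sox5 was at 72.7, 61.0, 66.7 and 82.1 in KO and at 63.2, 55.9, 46.3 and 66.0 in WT, overlapping ranges in which the 2 highest libraries were KO. The difference was 0.29 (SE 0.137, 95% interval 0.005 to 0.57, limma adjusted p = 0.496). Fezf2 there was at 57.3, 11.0, 24.7 and 58.3 in KO and at 22.2, 27.1, 3.44 and 30.04 in WT, with a difference of 0.89 (SE 0.565, adjusted p = 0.648). That of Fezf2 was 0.24 without WT replicate 3, 1.36 without KO replicate 2 and 0.71 without both. Summed markers separated the genotypes in this region with no overlap, KO below WT: 5917 to 6560 and 6631 to 9681 for astrocytes, 271 to 301 and 327 to 371 for oligodendrocyte precursors, and 35135 to 41264 and 42721 to 54550 for a list of mitochondrial RNAs and Malat1 used to follow RNA quality. Their part in these differences was not tested.

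In the P30 hippocampus Sox5 was at 35.7, 26.8, 29.5 and 39.7 in KO and at 28.0, 41.8, 42.5 and 46.2 in WT, the other way round, by −0.25 (SE 0.137, adjusted p = 0.573). Summed markers of the ganglionic eminence and interneurons lay lower in KO there with no overlap, 438 to 520 against 546 to 632, and their part was not tested. The difference of the Sox5 genotype effect between hippocampus and amygdala had an adjusted p of 0.750 or higher, as did that of every factor, and 0 genes (0.0%) were called in any of the 6 comparisons of genotype effects between regions. Foxp2, at 2.26, 4.40, 4.11 and 2.03 in KO and at 2.50, 8.14, 15.8 and 2.97 in WT, differed by −0.74 (SE 0.570, adjusted p = 0.716), with its highest value in the library high in choroid plexus and myelin genes, and by −0.31 without that library and the others that stood apart.

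In P30 frontal cortex Rorb was at 238, 195, 213 and 226 in KO and at 280, 224, 274 and 243 in WT. WT had the 3 highest libraries, and the difference was −0.23 (SE 0.121, 95% interval −0.47 to 0.024, adjusted p = 1.0). The RNA quality sum was lower in KO here too, 39548 to 41644 against 41788 to 49399, and its part was not tested. Fezf2 was at 16.2, 39.2, 23.8 and 26.2 in KO and at 25.2, 24.1, 18.4 and 16.8 in WT, by 0.26 (SE 0.565).

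At P60 the frontal cortex had Cux2 at 216, 209, 218 and 162 in KO and at 172, 150 and 162 in WT, so that 3 of 4 KO libraries lay above the WT range and the fourth, replicate 4, inside it. The difference was 0.31 (SE 0.220, adjusted p = 1.0). Pou3f2 was at 90.6, 74.6, 91.7 and 66.7 in KO and at 68.2, 68.7 and 52.5 in WT, by 0.35 (SE 0.259, adjusted p = 1.0), with KO replicate 4 again the lowest KO library. That library had the highest striatal sum of all frontal cortex libraries, 1716, and what it holds was not tested.
In the P60 amygdala Rorb was at 108, 117, 113 and 121 in KO and at 92.5, 97.8 and 108 in WT, by 0.20 (SE 0.162, adjusted p = 0.999). Foxp2 was at 16.5, 9.41, 78.7 and 18.8 in KO and at 16.3, 15.7 and 11.4 in WT. Its difference of 0.60 (SE 1.01) turned to −0.15 without the libraries that stood apart, of which the KO library at 78.7 is 1. In the P60 hippocampus, with 2 KO libraries, Fezf2 differed by 0.34 (SE 0.869) and Pou3f2 by 0.15 (SE 0.310). At this number of libraries the 95% intervals were wide, −1.53 to 2.21 for that Fezf2 difference.

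**Figure D4:**
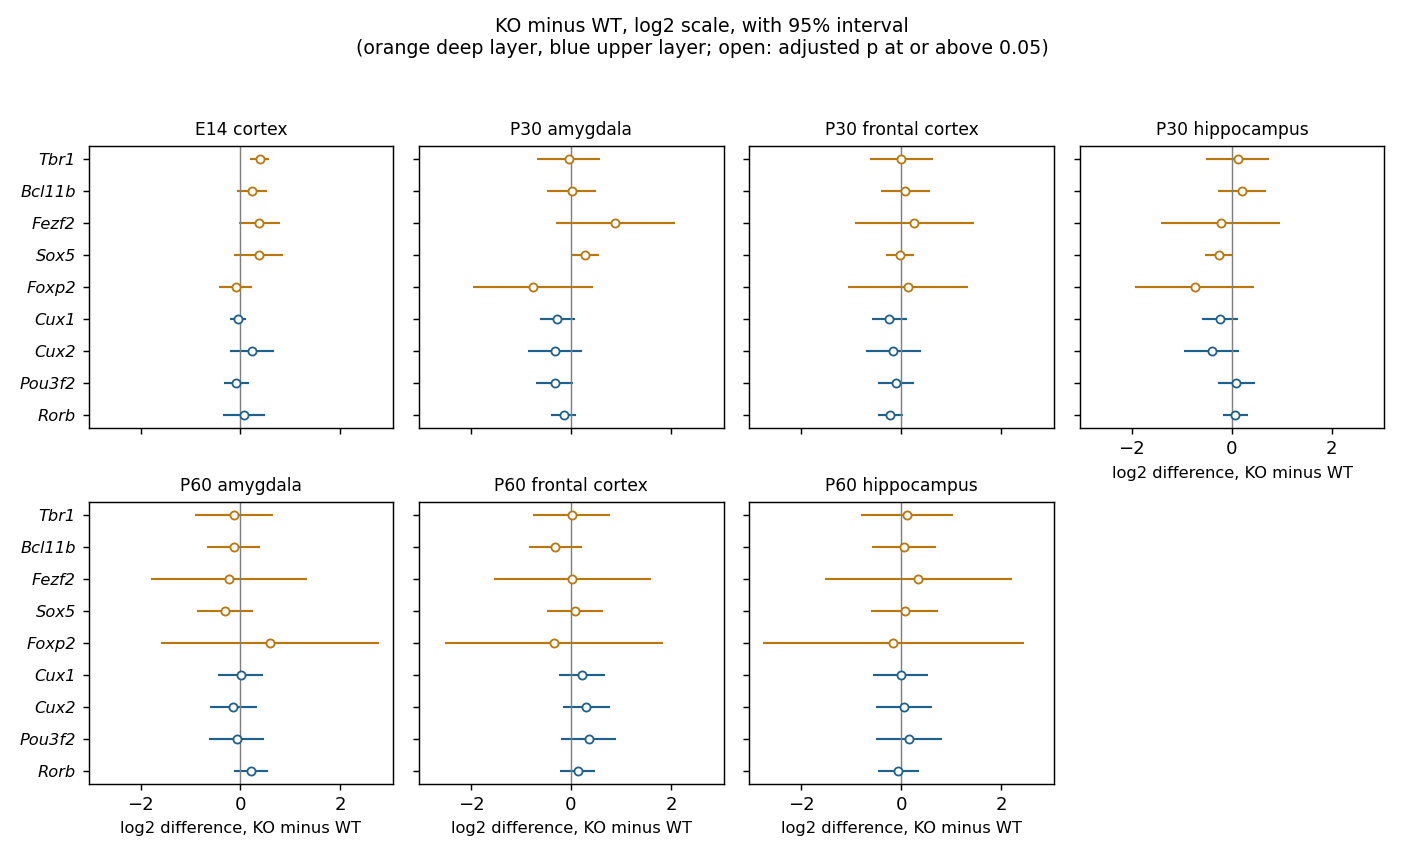
Log2 difference KO minus WT (x axis, with its 95% interval) for each factor in E14 cortex and in the 6 postnatal settings, deep-layer genes in orange and upper-layer genes in blue, all open because no adjusted p was under 0.05. The Tbr1 interval at E14 (0.20 to 0.58) and the Sox5 interval in the P30 amygdala (0.005 to 0.57) are those that do not reach 0, and the intervals of Fezf2 and Foxp2 are the widest after birth.

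**Figure D5:**
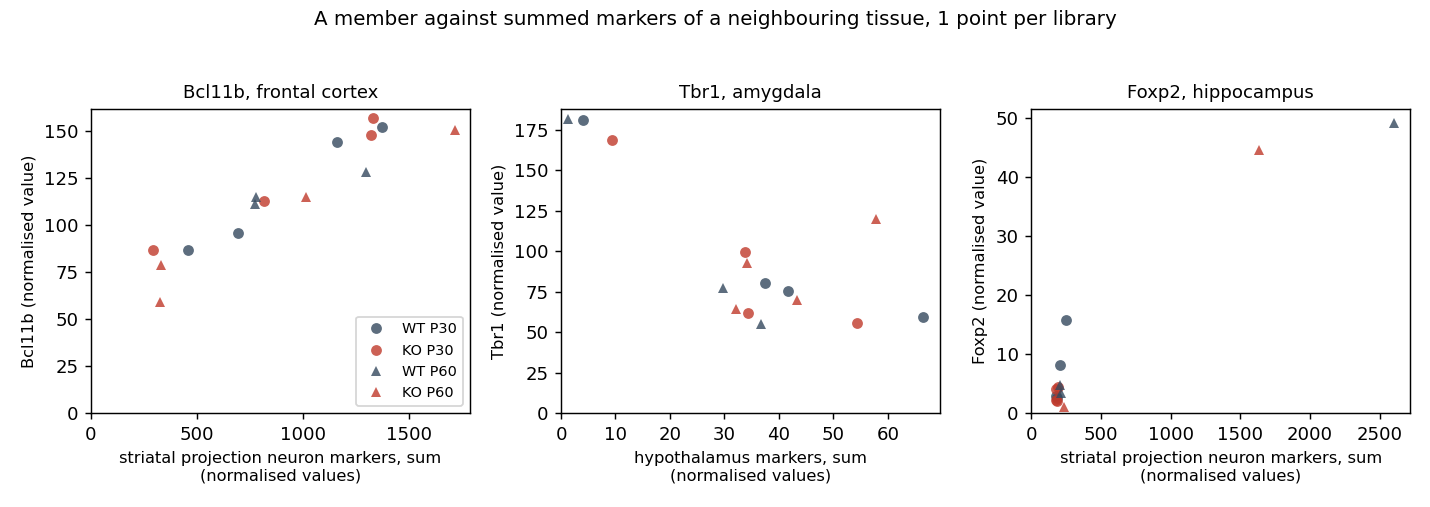
Normalised value of Bcl11b in frontal cortex, Tbr1 in amygdala and Foxp2 in hippocampus (y axes) against summed markers of a neighbouring tissue (x axes), 1 point per postnatal library, KO in red and WT in dark, circles for P30 and triangles for P60. Bcl11b rises along the striatal sum, the 3 highest Tbr1 points (169, 181 and 181) lie at hypothalamus sums of 9.3 or lower, and the 2 highest Foxp2 points (44.6 and 49.2) lie at striatal sums of 1631 and 2599.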

How the data were processed

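The authors deposited 3 tables, 1 per age, of normalised read counts per gene. These values are close to CPM, with column totals of 945861 to 1039135, and the scaling was not stated. The submitters' processing notes name the build mm9 and the tools DESeq, edgeR and limma without saying what each did. The aligner and counter were not stated in any label or header. Whether counting used strand is not stated, and Sox5, Cux1 and Cux2 overlap antisense genes. Values were whole multiples of 1 read within 0.1 read for 100.0% of values. Symbols, positions and exonic lengths came from GENCODE M21 (GRCm38), not mm9, where 48144 of 48526 IDs were found.

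Genes were tested by limma-trend (limma 3.58.1, R 4.3.3, trend and robust) on log2(value + 1), which understates changes of low genes, when they reached 10 reads at the median depth in a number of libraries equal to the smallest group's, and 15 reads in all. All groups of an age shared 1 fit, with Benjamini-Hochberg adjustment over all genes and a threshold of 0.05. Region contrasts weighted the genotypes equally. The test was checked on simulated data with less spread between libraries than many groups of these factors had. That check therefore does not measure what could be detected for the factors. All 9 factors are named. Of the listed genes, those called between genotypes and, between regions, the 2 largest called in each direction are named, for P30 frontal cortex, except 1 gene that is not reported here. The factors, lists and rules were chosen with earlier results of these data known. Sums over marker lists are of normalised values.

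Same-numbered libraries were regarded as paired where every correlation of their deviations was over 0.1. This held between frontal cortex and amygdala at P60 (0.11 to 0.214) and between KO and WT in the P60 amygdala (0.21 to 0.321). It also held between KO and WT in the P60 hippocampus, which has only 2 such pairs (0.624 and 0.497). The main fits used no block even there, and the replicate number as a block was run as an alternative. The labels do not say that a number is 1 animal. Alternatives were other filters and pseudocounts, voom with TMM, the replicate block, single genotypes and leaving out libraries.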

Additional observations from a re-analysis of the deposited data

Results flagged for a closer look

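A library far from the others of its group was found in 10 of the 90 groups of values checked, by Dixon's ratio at 95%, where chance gives about 1 in 20. Groups of fewer than 4 libraries, which are the WT groups at P60 and the KO hippocampus at P60, were not checked. At E14 these were Bcl11b in KO replicate 5 (717.48, next value 525.24), Sox5 in WT replicate 1 (351.48, next 232.23) and Cux1 in WT replicate 3 (490.26, next 462.1). At P30 they were Bcl11b in WT hippocampus replicate 3 (118.41, next 249.94) and, in WT amygdala replicate 3, Cux1 (216.88), Cux2 (126.51) and Pou3f2 (44.92), each the highest of its group. At P60 they were Foxp2 (78.72) and Cux1 (200.75) in KO amygdala replicate 3 and Cux2 in KO frontal cortex replicate 4 (162.17, next 208.72). WT amygdala replicate 3 at P30 also had the highest sum over myelinating oligodendrocytes of the amygdala libraries, 6662, and WT hippocampus replicate 3 the highest choroid plexus sum, 5461; their part was not tested.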

How the results depend on the processing

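In all, 0 of 9 factors were called between KO and WT in the 7 settings under every alternative run; edgeR and DESeq2, planned as alternatives, were not run: the deposited values are normalised, and limma and voom were used. In the comparison P60 hippocampus minus amygdala the count of 4 was 1 with KO libraries only, and 1 to 5 on leaving out single libraries; in P60 frontal cortex minus amygdala the count of 5 was 8 without the libraries that stood apart. Signs turned mostly for Fezf2, whose region differences were near 0. With the replicate block, Fezf2 was 0.052 (P60 frontal cortex minus hippocampus) and −0.15 (P60 hippocampus minus amygdala), and Rorb at E14 −0.00; besides the Bcl11b call given for P60 frontal cortex and amygdala, the block changed 1 call, Bcl11b in P30 hippocampus minus amygdala (0.40, adjusted p = 0.0243), where numbers did not pair the libraries. With KO libraries only, Fezf2 was −0.30 and −0.55 at P30 (frontal cortex and hippocampus minus amygdala) and 0.034 at P60 (frontal cortex minus amygdala), and Pou3f2 0.14 (P30 hippocampus minus amygdala). With WT libraries only, Fezf2 was −0.24 (P30 frontal cortex minus hippocampus) and −0.22 (P60 hippocampus minus amygdala). Without WT number 3 in all P30 regions, Fezf2 was −0.28, −0.14 and −0.14 and Pou3f2 0.079. With voom, Fezf2 was −0.057 (P30 frontal cortex minus hippocampus) and 0.012 (P60 frontal cortex minus amygdala), and Pou3f2 0.009. In the fits added after seeing the data, without the libraries that stood apart, Fezf2 was −0.55, −0.17 and −0.38 at P30, 0.25 (frontal cortex minus hippocampus) and −0.99 (hippocampus minus amygdala) at P60 and −0.30 between KO and WT in P60 hippocampus, Tbr1 0.033 and 0.25 (hippocampus minus amygdala at P30 and P60), Pou3f2 0.15 and Foxp2 −0.15 (P60 amygdala, KO minus WT). At E14 without KO replicates 4 and 5, Cux1 was 0.021, Cux2 −0.025 and Rorb −0.17. The causes of these turns were not tested.

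Leaving out single libraries turned the sign of Cux1 (−0.085 to 0.012) and Rorb (−0.042 to 0.18) at E14. Fezf2 ranged from −0.31 to 0.17, −0.17 to 0.11 and −0.32 to 0.19 at P30 (frontal cortex minus amygdala, frontal cortex minus hippocampus, hippocampus minus amygdala) and from −0.50 to 0.12, −0.52 to 0.21 and −0.35 to 0.42 at P60. Between hippocampus and amygdala, Pou3f2 ranged from −0.12 to 0.057 at P30 and Foxp2 from −1.99 to 0.24 at P60. Between KO and WT in P60 hippocampus, Fezf2 ranged from −0.39 to 1.06 and Pou3f2 from −0.088 to 0.38.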
